A study of Homo sapiens with 8 samples.

Results

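The 2Fjo cultures are neural cultures grown flat (2-D) under 1 of 3 differentiation protocols whose cells share a name beginning with 2DProto. Their cells were found by the start of the cell name, 2DProto2Fjo, and numbered 2447 of the 43693 cells in the series, with 1126 in tag 1 and 1321 in tag 2. They were set against the 2272 cells named 3Wu (926 and 1346) and the 2019 cells named 4Nic (682 and 1337). All 3 groups were derived from H1, a human embryonic stem cell line in wide use, and so share 1 line and genotype. None of the 6 tags carries a drug in its name. The labels do not say what the codes 2Fjo, 3Wu and 4Nic stand for, which factors the protocols use, or how old the cultures were. The study profiled single cells of flat and organoid cultures to learn what they hold and how they answer dopamine, cocaine and morphine. A tag is the part of the cell name that marks a culture, and it is the unit of replication here. Whether the 2 tags of a protocol are separate cultures is not stated, so p-values measure only the spread between tags, which may be technical.

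The telencephalon is patterned from dorsal to ventral. Dorsally, LMX1A and WNT ligands mark the roof and the midline, which give rise to the choroid plexus, and progenitors with PAX6 and EMX2 make glutamatergic neurons through NEUROG2, EOMES, NEUROD6 and TBR1. Ventrally, sonic hedgehog (SHH) and NKX2-1 mark the medial ganglionic eminence, whose DLX-expressing cells make GABAergic and cholinergic neurons through LHX6 and LHX8.

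The files list each cell with its counts over 60286 genes. The totals per tag were 31051067 and 28307599 for 2Fjo, 17218408 and 28467556 for 3Wu, and 14137580 and 46450493 for 4Nic. Median counts per cell ran from 15364 to 25853, and the median mitochondrial share from 2.66% to 6.54%, with both 4Nic tags highest. The 2Fjo cells were spread over the 8 sublibraries at 275 to 329 cells each, and 0 cells of the 6 tags shared barcode and sublibrary with another cell. In sums over all cells, fewer cells of a type and less RNA per cell cannot be told apart. Levels are given as CPM, a gene's count scaled to a common library size, from sums over the cells of a tag normalised by TMM. They are not divided by gene length, so they are compared between tags and not between genes. The neural label was checked first. The tubulin binder DCX lay at 282 and 338 CPM in 2Fjo, 327 and 342 in 3Wu, and 377 and 321 in 4Nic. Between 87.5% and 91.2% of the cells of each tag had counts of at least 3 of 10 general neuron markers. With each cell thinned to 5000 counts, shallower cells left out, the shares were 73.5% and 73.6% in 2Fjo, 75.2% and 77.5% in 3Wu, and 62.6% and 58.0% in 4Nic. These are not shares of neurons, because such markers were also found in dividing cells. MAP2, for example, lay at 1021 and 1100 CPM in the 2Fjo cells grouped as cycling. SOX2, a defining factor of neural progenitors, was near the floor in all 6 tags, at most 2.34 CPM. Whether reads of this gene were lost in the authors' counting was not tested.

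Of 25637 genes tested, 4264 (16.6%) passed an adjusted p of 0.05 between 2Fjo and the mean of both other protocols, 2378 of them higher (9.28%) and 1886 lower (7.36%) in 2Fjo. Against 3Wu alone 4350 passed (17.0%), of which 2352 were higher and 1998 lower (7.79%). Against 4Nic alone 6288 passed (24.5%), of which 2998 were higher and 3290 lower (12.8%). The median log2 fold change of all genes was -0.000425 in the first comparison. All 3 comparisons use the same 2Fjo tags, so their values are given side by side. In a fit over all 46 tags of the series, which has a wider common spread, 1973, 2036 and 3514 genes passed.

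Glutamatergic neuron genes of the cortex had high levels in 2Fjo. Of the 16 genes on this list, all tested, 12 passed higher and 0 lower against the mean of both protocols, beside 9.28% and 7.36% of all genes, and the median log2 fold change of the list was 2.47. Against 3Wu 13 passed higher and 0 lower, and against 4Nic 11 higher and 1 lower, beside 9.17% and 11.7% of all genes passing higher. The count against the mean stayed at 12 or 13 under each of 13 alternative settings.

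The neuronal differentiation factor NEUROD6 lay at 48.4 and 90.1 CPM in 2Fjo, 0.272 and 0.160 in 3Wu, and 28 and 15.8 in 4Nic. Both 2Fjo tags were above all 4 others, 3Wu was close to 0 and 4Nic lay between. Its log2 fold change was 8.38 ± 0.52 (SE) against 3Wu (edgeR adjusted p = 6.3e-06) and 1.68 ± 0.32 against 4Nic (edgeR adjusted p = 0.00434). TBR1, the factor of early-born deep-layer neurons, stood at 84.6 and 62.2 CPM in 2Fjo, 1.30 and 1.79 in 3Wu, and 33.2 and 30 in 4Nic. The groups did not overlap, and the log2 fold change was 5.53 ± 0.25 against 3Wu (edgeR adjusted p = 1.39e-06) and 1.22 ± 0.19 against 4Nic (edgeR adjusted p = 0.00149). A count of TBR1 was found in 46.8% and 39.4% of 2Fjo cells, 2.48% and 2.97% of 3Wu cells, and 22.1% and 20.4% of 4Nic cells. After each cell was thinned to 5000 counts these shares were 29.4% and 21.8%, 0.544% and 0.671%, and 11.7% and 11.4%, in the same order.

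SLC17A7, a vesicular glutamate transporter (VGLUT1), showed 18.9 and 16 CPM in 2Fjo against 0.870 and 0.704 in 3Wu and 6.06 and 6.29 in 4Nic. Its relative SLC17A6 (VGLUT2) showed 27.9 and 38.9 CPM, against 10 and 7.59 and 13.6 and 8.16. Both transporters were highest in the 2Fjo tags without overlap, with log2 fold changes of 2.99 ± 0.19 (edgeR adjusted p = 1.11e-05) and 1.79 ± 0.23 (edgeR adjusted p = 0.000585) against the mean. The earlier steps of the lineage were less apart from 4Nic. NEUROG2, which starts the glutamatergic programme, had 393 and 324 counts in 2Fjo, 0 and 2 in 3Wu, and 108 and 371 in 4Nic. As 11.8 and 11.2 CPM against 8.73 and 9.04, the 2Fjo and 4Nic levels differed by a log2 fold change of 0.37 ± 0.24 (edgeR adjusted p = 0.302). EOMES, of intermediate progenitors, lay at 7.62 and 10.3 CPM in 2Fjo, 0.435 and 0.192 in 3Wu, and 4.93 and 4.87 in 4Nic (edgeR adjusted p = 0.0477 against 4Nic). CUX2, of upper layers, lay between 166 and 201 CPM in all 6 tags.

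Genes outside this list also differed in the sums over all cells. Among the 12 genes with the largest fold change upward were CALB2, which encodes the calcium binder calretinin, NTS, which encodes the neuropeptide neurotensin, BHLHE22, a factor of projection neurons, and 3 long non-coding RNAs named LINC. CALB2 lay at 47.5 and 44.8 CPM in 2Fjo, 1.79 and 3.46 in 3Wu, and 1.62 and 3.17 in 4Nic. It was thus high in both 2Fjo tags and low in all 4 others, with a log2 fold change of 4.13 ± 0.26 against their mean (edgeR adjusted p = 9.95e-06). NTS was less even between the 2Fjo tags, at 10.5 and 37.9 CPM, against 0.109, 0.0640, 0.889 and 0.755 in the other tags. BHLHE22 was at 26.1 and 51.3 CPM in 2Fjo, 0.109 and 0.0640 in 3Wu and 6.63 and 4.58 in 4Nic. A count of CALB2 was found in 30.9% and 30.1% of 2Fjo cells and in 2.38% to 5.13% of the cells of the other tags. Across the other 40 tags of the series, which hold other flat and 3-D cultures, vehicle and drug-treated, the highest plain CPM was 12 for CALB2, 7.44 for NTS and 25.3 for BHLHE22. Both 2Fjo tags were above all 40 for these 3 genes.

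**Figure D1:**
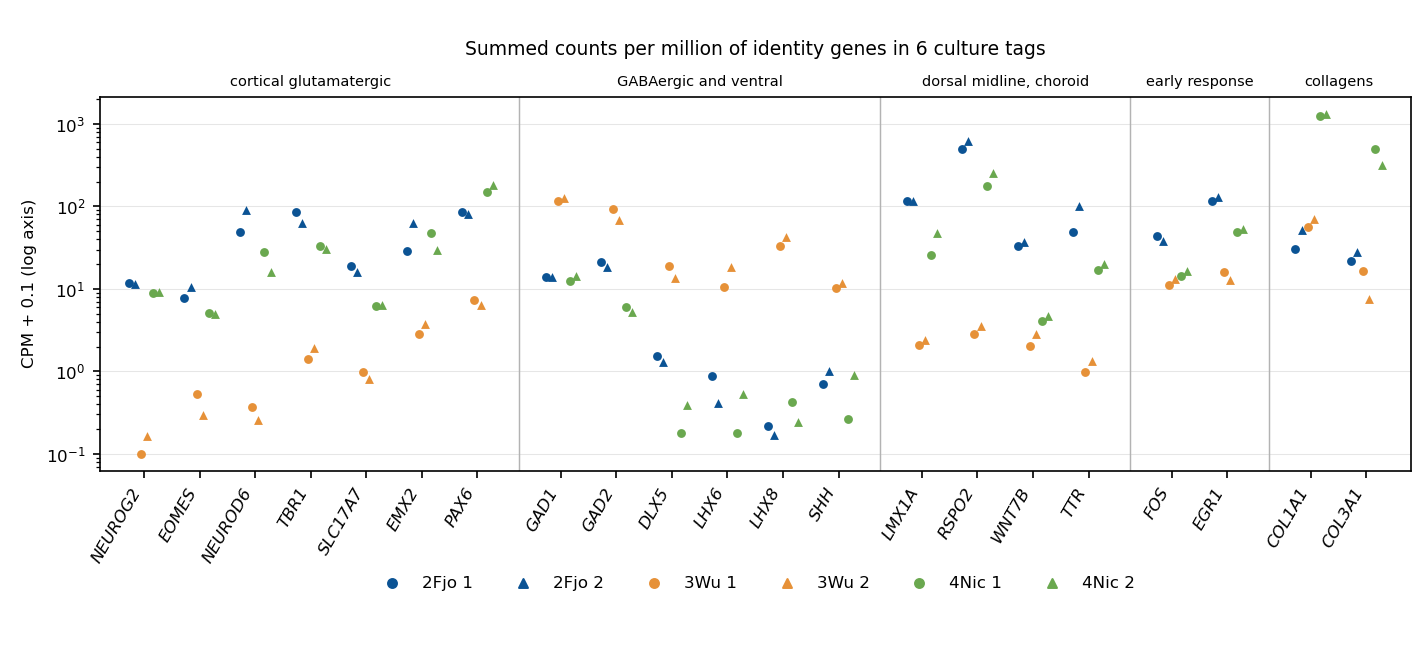
Level of identity genes (CPM + 0.1, log axis) in the 6 culture tags; circles are tag 1 and triangles tag 2 of a protocol, and colours are protocols. TBR1, SLC17A7, RSPO2 and LMX1A are highest in both 2Fjo tags, with 3Wu lowest and 4Nic between, while GAD1 and LHX8 are highest in 3Wu and COL1A1 in 4Nic.

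The promoters of NEUROD6 and of the early response gene EGR1 (described further on) are shown because both genes passed higher in 2Fjo against both protocols. Genes and motifs were chosen after their values were seen. The windows are the 250 bases before the gene start, from RefSeq on GRCh38.p14. Capitals in NEUROD6, at chr7:31340727-31340976 on the minus strand, mark CAGATG, the E-box letters that neurogenic bHLH factors are known to bind. Capitals in EGR1, at chr5:138465229-138465478 on the plus strand, mark CC, any base, TAT, any 2 bases and GG, letters of the known serum response element.
NEUROD6: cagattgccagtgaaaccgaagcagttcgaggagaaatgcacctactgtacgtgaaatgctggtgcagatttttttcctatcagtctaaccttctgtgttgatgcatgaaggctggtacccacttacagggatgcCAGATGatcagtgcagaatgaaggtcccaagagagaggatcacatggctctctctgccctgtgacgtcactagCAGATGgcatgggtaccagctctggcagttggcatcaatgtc
EGR1: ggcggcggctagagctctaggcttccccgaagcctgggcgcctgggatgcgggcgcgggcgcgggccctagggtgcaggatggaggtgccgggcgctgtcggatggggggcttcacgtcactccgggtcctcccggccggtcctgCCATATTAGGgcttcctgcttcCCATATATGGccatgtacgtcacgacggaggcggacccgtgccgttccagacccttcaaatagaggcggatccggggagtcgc
Both strands were searched. CAGATG was found 2 times in NEUROD6 and occurs in 12.2% of 35116 windows of this length. On the cortical list 2 of the 13 members with a window hold it, NEUROD2 and NEUROD6. The second pattern was found 2 times in EGR1 and occurs in 1.06% of windows. On the immediate early list 2 of 14 members with a window hold it, EGR1 and EGR2. A match is a description of the letters and does not show binding.

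LMX1A, a homeobox factor of the roof plate that also marks midbrain dopaminergic progenitors, lay at 115 and 118 CPM in 2Fjo, 2.01 and 2.31 in 3Wu, and 25.8 and 47.7 in 4Nic. The groups did not overlap, and the log2 fold change was 5.74 ± 0.30 against 3Wu (edgeR adjusted p = 2.79e-06) and 1.65 ± 0.24 against 4Nic (edgeR adjusted p = 0.00091). Other midbrain genes went in several directions. FOXA2 had 0 CPM in both 2Fjo tags, EN1 at most 0.0305, and the dopamine enzyme TH 1.17 and 0.174 CPM against 0.242 to 2.67 in the other tags. Of the 13 genes tested from the midbrain and floor plate list, 3 passed higher and 4 lower against the mean (9.28% and 7.36% of all genes), with a median log2 fold change of -0.41. The 3 higher were LMX1A, EN2 and NR4A2, a nuclear receptor of dopaminergic neurons that is also an early response gene. NR4A2 lay at 9.24 and 12.9 CPM in 2Fjo, 3.05 and 3.46 in 3Wu, and 8.16 and 8.63 in 4Nic. LMX1B, the paralogue of LMX1A, passed higher against 3Wu and lower against 4Nic.

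RSPO2, which encodes a secreted amplifier of WNT signalling, showed 489.9 and 622 CPM in 2Fjo, 2.72 and 3.49 in 3Wu, and 178 and 256 in 4Nic. Both 2Fjo tags lay above both other protocols and 4Nic lay far above 3Wu, with log2 fold changes of 7.46 ± 0.26 against 3Wu (edgeR adjusted p = 1.29e-06) and 1.35 ± 0.19 against 4Nic (edgeR adjusted p = 0.000672). The ligand WNT7B showed 32.9 and 37.3 CPM in 2Fjo, 1.96 and 2.72 in 3Wu, and 3.96 and 4.56 in 4Nic. WNT7B was thus low in both other protocols, with a log2 fold change of 3.45 ± 0.18 against their mean (edgeR adjusted p = 4.01e-06), and both 2Fjo tags exceeded all 40 other tags of the series. The same held for the membrane-bound WNT inhibitor APCDD1 among the 6 tags, at 35.6 and 43.0 CPM against 7.12 to 9.97 (log2 fold change 2.27 ± 0.17, edgeR adjusted p = 3.12e-05). Of 20 genes tested from the list of WNT response and modulators, 7 passed higher and 3 lower against the mean (9.28% and 7.36% of all genes), with a median log2 fold change of 0.17. By protocol, 13 passed higher and 1 lower against 3Wu (9.17% and 7.79%), and 5 higher and 7 lower against 4Nic (11.7% and 12.8%). AXIN2, NKD1 and ZNRF3, which encode feedback inhibitors of the pathway, passed higher against 3Wu and lower against 4Nic. LGR5, a receptor for R-spondins, passed lower against 3Wu (5.56 and 5.63 CPM against 30.5 and 19.7), with 9.94 and 7.75 in 4Nic. Its call against the mean was lost in the fit over 46 tags (edgeR adjusted p = 0.205), as was that of WNT5A there (edgeR adjusted p = 0.238) and without 2Fjo tag 2 or 3Wu tag 1.

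Some markers of the choroid plexus, the secretory epithelium of the brain ventricles, were higher in 2Fjo and others were not. TTR, the thyroid hormone carrier made by this epithelium, lay at 49.4 and 101 CPM in 2Fjo, 0.870 and 1.25 in 3Wu, and 17 and 19.7 in 4Nic. All 4 other tags were below both 2Fjo tags, and the log2 fold change against the mean was 4.06 ± 0.26 (edgeR adjusted p = 1.16e-05). Of the other 40 tags of the series 3 exceeded both 2Fjo tags for TTR. The summed level of the 8 choroid plexus markers was 1245 and 1049 CPM in 2Fjo, 129 and 143 in 3Wu, and 223 and 291 in 4Nic. Most of that sum was HTR2C, a serotonin receptor gene, with a mean of 991 CPM in 2Fjo, 89.2 in 3Wu and 190 in 4Nic. Of these 8, AQP1, FOLR1 and KCNJ13, which mark mature choroid epithelium, were under 1 CPM in both 2Fjo tags. OTX2, a factor of choroid and other anterior cells, overlapped between groups at 33.2 and 47.0 CPM in 2Fjo and 27.2 to 50.7 in the rest. After thinning to 5000 counts, 3.67% and 6.49% of 2Fjo cells had at least 3 of the 8 markers, against 0% and 0.0746% in 3Wu and 0.448% and 1.05% in 4Nic. Without thinning the second 4Nic tag reached 11.3%, beside 11.0% and 12.9% in 2Fjo. That tag had the deepest cells, with a median of 25853 counts.

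GABAergic and ventral genes were mainly a mark of 3Wu. GAD1, an enzyme that makes GABA, lay at 14.0 and 13.9 CPM in 2Fjo, 117 and 127 in 3Wu, and 12.2 and 14.4 in 4Nic. The 2Fjo and 4Nic tags overlapped. GAD1 passed lower against the mean, but by single protocol only the comparison with 3Wu passed (log2 fold change -3.13 ± 0.16, edgeR adjusted p = 2.18e-06; against 4Nic edgeR adjusted p = 0.819). GAD2, the second such enzyme, stood between the protocols at 21 and 18.4 CPM, with 93.5 and 68.5 in 3Wu and 5.90 and 5.14 in 4Nic. The vesicular GABA transporter SLC32A1 followed the same order, with 1.91 and 1.32, 9.84 and 7.75, and 0.242 and 0.414 CPM. So did DLX5, a factor of ventral GABAergic cells, at 1.44 and 1.18, 18.6 and 13.3, and 0.0808 and 0.292 CPM. Each of GAD2, SLC32A1 and DLX5 passed lower against 3Wu and higher against 4Nic (largest edgeR adjusted p = 0.00351).

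LHX8, of ventral cholinergic and GABAergic neurons, showed 0.120 and 0.0695 CPM in 2Fjo, 33.3 and 42.2 in 3Wu, and 0.323 and 0.146 in 4Nic. With 4 and 2 counts in 2Fjo and 4 and 6 in 4Nic, the LHX8 difference against the mean (log2 fold change -4.76 ± 0.49, edgeR adjusted p = 0.000167) came with a log2 fold change of -8.55 against 3Wu and an edgeR adjusted p of 0.342 against 4Nic. LHX6, its relative in cortical interneurons, was at 0.777 and 0.313, 10.4 and 18.5, and 0.0808 and 0.439 CPM. SHH showed 0.598 and 0.903, 10.1 and 11.7, and 0.162 and 0.804 CPM. Both genes passed lower against 3Wu, and neither passed against 4Nic. NKX2-1 had an entry of 0.5 or more in 0 of 1126 and 0 of 1321 2Fjo cells, which allows shares of cells with such an entry of up to 0.266% and 0.227%, and in 1.19% and 3.42% of 3Wu cells. Any entry above 0 was found in 0.355% and 0.0757% of 2Fjo cells and in 5.51% and 7.58% of 3Wu cells. Of 18 genes tested from the list of the medial ganglionic eminence and its interneurons, 1 passed higher and 7 lower against the mean (9.28% and 7.36% of all genes), and the median log2 fold change was -0.75. Against 3Wu 2 passed higher and 11 lower (9.17% and 7.79% of all genes), and against 4Nic 3 higher and 3 lower (11.7% and 12.8%), the latter near the shares of all genes. The 1 gene higher against the mean was CHAT, the acetylcholine enzyme, at 5.74 and 3.92 CPM in 2Fjo, 2.07 and 2.08 in 3Wu, and 0.162 and 0.390 in 4Nic (log2 fold change 2.55 ± 0.29, edgeR adjusted p = 0.000308). The other cholinergic markers SLC5A7 and SLC18A3 were under 1 CPM in both 2Fjo tags.

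Striatal projection neuron genes went in both directions. Of 27 tested, 9 passed higher and 7 lower against the mean (9.28% and 7.36% of all genes), with a median log2 fold change of 0.12. PPP1R1B, the dopamine-regulated phosphatase inhibitor DARPP-32, passed higher from a low level, at 2.60 and 2.19 CPM against 0.272 to 0.390 in the 4 other tags (log2 fold change 2.79 ± 0.30, edgeR adjusted p = 0.000218). A count of it was found in 6.39% and 3.63% of 2Fjo cells and at most 1.12% of cells elsewhere, and in 1.25% and 0.763% of 2Fjo cells after thinning. The dopamine receptor gene DRD1 had 16 and 13 counts in 2Fjo against 1 to 7 elsewhere, and lost its call under 5 of 11 alternatives that gave an adjusted p. BCL11B, of subcerebral and striatal projection neurons, lay at 143 and 151 CPM in 2Fjo, 62.2 and 77.3 in 3Wu, and 120.5 and 110.5 in 4Nic. PDE10A, a phosphodiesterase enriched in striatal neurons, was far higher in 4Nic, at 3765 and 4214 CPM, than in 2Fjo (292 and 289) or 3Wu (192 and 232). FOXP1, a transcription factor of striatal neurons, was also highest in 4Nic, at 71.2 and 77.0 CPM in 2Fjo, 98.7 and 84.1 in 3Wu, and 425 and 447 in 4Nic. Neither level is that of neurons alone. In 4Nic cells grouped as progenitor-like (described further on) PDE10A lay at 5734 and 6423 CPM and FOXP1 at 464 and 318. In those grouped as cycling PDE10A lay at 5611 and 6437 CPM and FOXP1 at 371 and 326. GSX2, which specifies the lateral ganglionic eminence, had 0 CPM in all 6 tags. In the fit over 46 tags the calls of BCL11B (edgeR adjusted p = 0.418) and GAD1 (edgeR adjusted p = 0.111) against the mean were lost.

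Genes of other brain regions gave short lists. PAX6, of dorsal progenitors, was lower in 2Fjo than in 4Nic and higher than in 3Wu, at 86.2 and 79.8, 148 and 181, and 7.18 and 6.34 CPM in 2Fjo, 4Nic and 3Wu. EMX2, of dorsal telencephalon, overlapped with 4Nic, at 28.4 and 63.0 CPM beside 47.2 and 29.8, and both lay above 3Wu with 2.72 and 3.68. Of 12 genes tested from the list of diencephalon, hypothalamus and eye, 4 passed higher and 1 lower against the mean, beside 9.28% and 7.36% of all genes. RAX, a factor of the eye field and hypothalamus, had 95 and 100 counts in 2Fjo and 0 to 3 in each other tag. Of the 30 genes on the hindbrain and spinal cord list 21 were too low to be tested, all listed HOX genes among them. Of the 9 tested, 2 passed higher and 2 lower, against the same shares of all genes.

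The other signalling lists went in both directions against the mean, beside 9.28% of all genes higher and 7.36% lower. The shares of all genes were 9.17% and 7.79% against 3Wu and 11.7% and 12.8% against 4Nic. For hedgehog response 3 of 12 tested genes passed higher, namely the co-receptor genes CDON, BOC and GAS1, and 2 passed lower, GLI1 and SHH. Each of these 2 lost its call under 4 of 13 alternatives. For SHH these were the fit over 46 tags and leaving out 2Fjo tag 1, 3Wu tag 2 or 4Nic tag 2 (edgeR adjusted p up to 0.396). For GLI1 they were equal cell numbers per tag and leaving out 2Fjo tag 1, 3Wu tag 1 or 4Nic tag 2 (edgeR adjusted p up to 0.135). CDON lay at 446 and 451 CPM in 2Fjo, 98.2 and 81.1 in 3Wu, and 446 and 408 in 4Nic, so that its difference was from 3Wu alone (log2 fold change 2.32 ± 0.13, edgeR adjusted p = 4.36e-06; against 4Nic edgeR adjusted p = 0.719). BOC and GAS1 likewise passed higher against 3Wu and did not pass against 4Nic. By protocol, 5 hedgehog genes passed higher and 3 lower against 3Wu, and 2 higher and 3 lower against 4Nic. PTCH1, of the same list, passed lower against 3Wu and higher against 4Nic. GLI1, a transcriptional target of the pathway, was low throughout, with 4 and 10 counts in 2Fjo and 10 to 60 elsewhere. For activin, TGF-beta and BMP 5 of 25 passed higher and 6 lower, with 9 higher and 1 lower against 3Wu and 2 higher and 9 lower against 4Nic. BAMBI, which encodes a BMP and activin pseudoreceptor, passed higher (3.53 and 4.86 CPM against 0.435 and 0.160 in 3Wu and 3.31 and 3.24 in 4Nic). The extracellular protein gene TGFBI passed lower (0.598 and 1.49 CPM, against 5.06 and 3.17 and 47.4 and 98.9). For retinoic acid 1 of 14 passed higher and 4 lower, with 3 and 2 against 3Wu and 2 and 8 against 4Nic. Among the 4 was the retinol receptor gene STRA6 at 9.24 and 8.23 CPM against 16.8 to 27.1 in the other tags.

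Several collagen genes were lower in 2Fjo than in 4Nic. COL1A1, the main chain of type I collagen, stood at 30.7 and 51.8 CPM in 2Fjo, 56.7 and 70.0 in 3Wu, and 1233 and 1327 in 4Nic. The groups did not overlap. The difference from 4Nic passed (log2 fold change -4.96 ± 0.24, edgeR adjusted p = 2.68e-06) and that from 3Wu did not (edgeR adjusted p = 0.0727). ITGA11, a collagen-binding integrin, and COL1A2, COL8A1, TGFBI, CPA4, FLI1 and MSC-AS1 were among the 12 genes with the largest fold change downward and had their highest level in 4Nic. The summed level of the 8 mesenchymal markers was 118 and 141 CPM in 2Fjo, 165 and 156 in 3Wu, and 2416 and 2498 in 4Nic, with 0 of the 8 under 1 CPM in both 2Fjo tags. Their part in these differences was not tested. In the fit over 46 tags the calls of COL1A1 and COL1A2 against the mean were lost (edgeR adjusted p = 0.238 and 0.163). SLCO1C1, a thyroid hormone transporter, was low in 2Fjo beside both protocols, at 1.44 and 1.22 CPM against 26.5 and 20.6 in 3Wu and 35.1 and 28.6 in 4Nic. All 40 other tags of the series lay above both 2Fjo tags for this gene. FZD5, a WNT receptor, and LAMB4, a laminin chain, were highest in 3Wu and still lower in 2Fjo than in 4Nic, with log2 fold changes of -1.50 ± 0.25 (edgeR adjusted p = 0.00199) and -1.35 ± 0.26 (edgeR adjusted p = 0.00398) there.

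**Figure D2:**
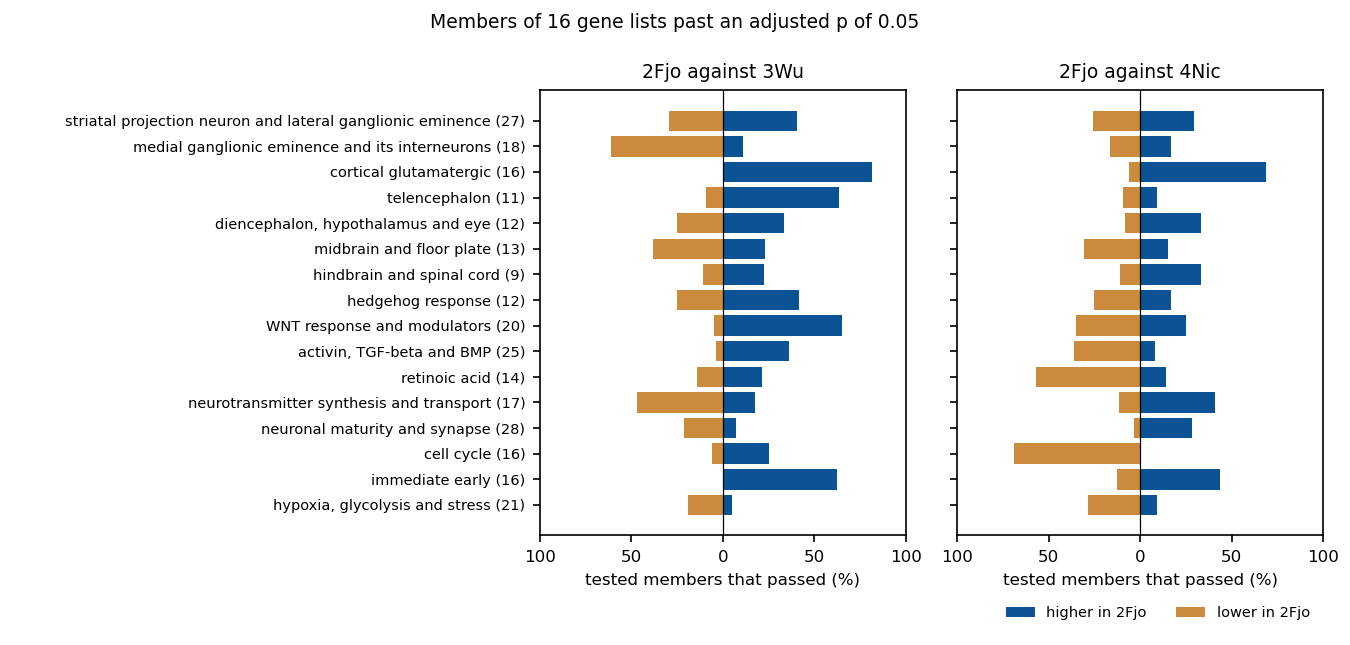
Share of the tested members of 16 gene lists that passed an adjusted p of 0.05, higher (right of 0) or lower (left of 0) in 2Fjo, against 3Wu (left panel) and 4Nic (right panel); the number tested is in brackets. The cortical glutamatergic and immediate early lists lean to higher in both panels, while the WNT and cell cycle lists lean to different sides.

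Immediate early genes, which neurons and other cells switch on within minutes of a stimulus, passed higher in 2Fjo for part of the list. Of 16 tested, 9 passed higher and 0 lower against the mean, beside 9.28% and 7.36% of all genes, with a median log2 fold change of 0.93. Against 3Wu 10 passed higher (9.17% of all genes) and 0 lower, and against 4Nic 7 higher (11.7%) and 2 lower. EGR1 lay at 115 and 131 CPM in 2Fjo, 15.7 and 12.7 in 3Wu, and 48.9 and 53.1 in 4Nic. FOS lay at 43.6 and 38.2, 11.0 and 13.2, and 14.4 and 16.4 CPM. Both genes were highest in the 2Fjo tags without overlap, with log2 fold changes of 2.20 ± 0.13 (edgeR adjusted p = 5.96e-06) and 1.58 ± 0.15 (edgeR adjusted p = 0.000111) against the mean. The 2 genes that passed lower against 4Nic were FOSL2 and DUSP1. Across the other 40 tags FOS ranged from 8.60 to 275 plain CPM, and 22 of them lay above both 2Fjo tags. Between 5 and 10 of the 16 passed higher under the 13 alternatives. How the cells were dissociated in each protocol is not given in the labels, and its part in these levels was not tested.

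Of 28 genes of neuronal maturity and synapse, 4 passed higher and 3 lower against the mean (9.28% and 7.36% of all genes), with a median log2 fold change of 0.03. Against 3Wu 2 passed higher and 6 lower (9.17% and 7.79% of all genes), and against 4Nic 8 higher and 1 lower (11.7% and 12.8%). MAP2, a dendritic protein, lay between 1277 and 1593 CPM in all 6 tags, and SNAP25, of synaptic vesicle fusion, between 19.8 and 30.7. GRIA2, an AMPA receptor subunit, passed higher (419 and 519 CPM, with 330.2 and 367 in 3Wu and 159.7 and 97.6 in 4Nic), and GRIN2B, an NMDA receptor subunit, lower (217 and 213 CPM, against 553 and 519 and 404 and 359.6). Both calls were lost in the fit over 46 tags (edgeR adjusted p = 0.0602 and 0.0738). The cell cycle list separated 2Fjo from 4Nic: against 4Nic 0 of 16 genes passed higher and 11 lower, and against 3Wu 4 higher and 1 lower. MKI67, the proliferation marker, stood at 62.6 and 85.9 CPM in 2Fjo, 52.2 and 55.4 in 3Wu, and 178 and 126 in 4Nic. From the hypoxia, glycolysis and stress list 0 of 21 passed higher and 4 lower against the mean, among them the hexokinase gene HK2 at 7.57 and 6.53 CPM against 14.8 to 33 elsewhere.

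Cell composition was described in 2 ways: by cells that carry a class's markers, and by clusters. A cell was counted for a class when it had a count of at least 3 of its markers. For excitatory neurons this held in 36.3% and 36.6% of 2Fjo cells, 0.432% and 0.223% of 3Wu cells, and 13.2% and 14.9% of 4Nic cells. After thinning the shares were 11.1% and 14.4%, 0% and 0%, and 2.84% and 2.18%. For GABAergic neurons the unthinned shares were 10.3% and 6.21% in 2Fjo, 42.9% and 41.7% in 3Wu, and 0.880% and 1.72% in 4Nic. Thinned, they were 3.13% and 2.06% in 2Fjo and 16.9% and 16.7% in 3Wu, and under those of 2Fjo in both 4Nic tags. After thinning, 7.16% and 8.02% of 2Fjo cells carried 3 cycling markers, against 3.16% and 4.40% in 3Wu and 17% and 16.3% in 4Nic. The mesenchymal shares after thinning were 1.34% and 0.916%, 1.85% and 0.969%, and 14.3% and 16.5%. Markers of microglia and of pluripotent cells were carried by at most 0.0888% and 0.266% of cells in any tag.

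Clustering of all cells of the series, run without the genes of the lists, gave 44 clusters. By the marker rule 67.5% and 65.4% of 2Fjo cells, 99.8% and 99.3% of 3Wu cells and 73.6% and 78.0% of 4Nic cells fell in clusters without a class name. Of the named classes, excitatory neuron-like cells made up 27.9% and 30.1% of 2Fjo, 0% and 0% of 3Wu, and 12.5% and 8.23% of 4Nic. The mean was 29.0% ± 1.53 (SD, n = 2 tags), 23.8 percentage points above the other 4 tags (two-sided exact permutation p = 0.133, adjusted p = 0.399 over 9 classes). With 2 tags against 4 there are 15 arrangements and 0.133 is the smallest p they can give, so no class could pass. Under the alternative settings the difference for excitatory neuron-like cells ran from 16.2 (clustering resolution 1.2) to 26.6 percentage points (resolution 0.4). The SD between tags does not cover this. Most cells of this class lay in a different cluster in 2Fjo than in 4Nic. Cluster 21, led by CALB2, NTS, BHLHE22 and LINC RNAs, held 27.3% and 29.5% of 2Fjo and at most 0.748% of any 3Wu or 4Nic tag. Cluster 1, led by NEUROD2, KLHL1 and OPCML, held 11.7% and 7.41% of 4Nic and 0.622% and 0.606% of 2Fjo. Cluster 32, left unnamed by the rule although it carried 6 of 8 excitatory markers, was led by CNTN2 and NHLH1 and held 6.04% and 4.54% of 2Fjo, 0% of both 3Wu tags, and 11.9% and 11.0% of 4Nic.

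The unnamed clusters are described by their leading genes. Cluster 17, led by TTR, HTR2C, TRPM3 and CLIC6 and with 7 of 8 ciliated and 4 of 8 choroid plexus markers, held 17.1% and 21.9% of 2Fjo, 0% of 3Wu, and 0.733% and 1.35% of 4Nic. Cluster 20, led by RELN, LHX1 and TP73, held 15.3% and 14.5% of 2Fjo, 0.108% and 0.0743% of 3Wu, and 6.30% and 3.74% of 4Nic. RELN encodes the secreted layering signal reelin. Cluster 24, which carried all 8 cycling markers and was led by DCT, HOPX and CFI, held 11.9% and 7.95% of 2Fjo and 25.7% and 24.5% of 4Nic. Cluster 4, led by LHX8, LHX6 and ISL1, held 5.60% and 4.24% of 2Fjo cells but 62.9% and 62.1% of 3Wu cells. Its leading genes were ranked over all its cells in the series. Over all 2Fjo cells LHX8 lay at 0.129 and 0.0707 plain CPM, so few of the 2Fjo cells in this cluster can carry it. When the cells of the 6 tags were clustered alone, choroid plexus-like cells made up 9.5% and 10.1% of 2Fjo and 0% of the other 4 tags, and GABAergic neuron-like cells 7.02% and 6.21% of 2Fjo, 45.6% and 35.4% of 3Wu, and 0.147% and 0.524% of 4Nic. These too came from different clusters, with 6.31% and 5.53% of 2Fjo in cluster 18 of that clustering and 45.4% and 35.1% of 3Wu in its cluster 0. Its unnamed clusters 3 and 22, led by LHX6 and LHX8 among others and with 6 and 7 of 8 GABAergic markers, held 13.7% and 21.3% and 4.00% and 4.90% of 3Wu and 0% of 2Fjo. Over the 8 sublibraries, excitatory neuron-like cells were 24.2% to 32% of the 2Fjo cells.

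**Figure D3:**
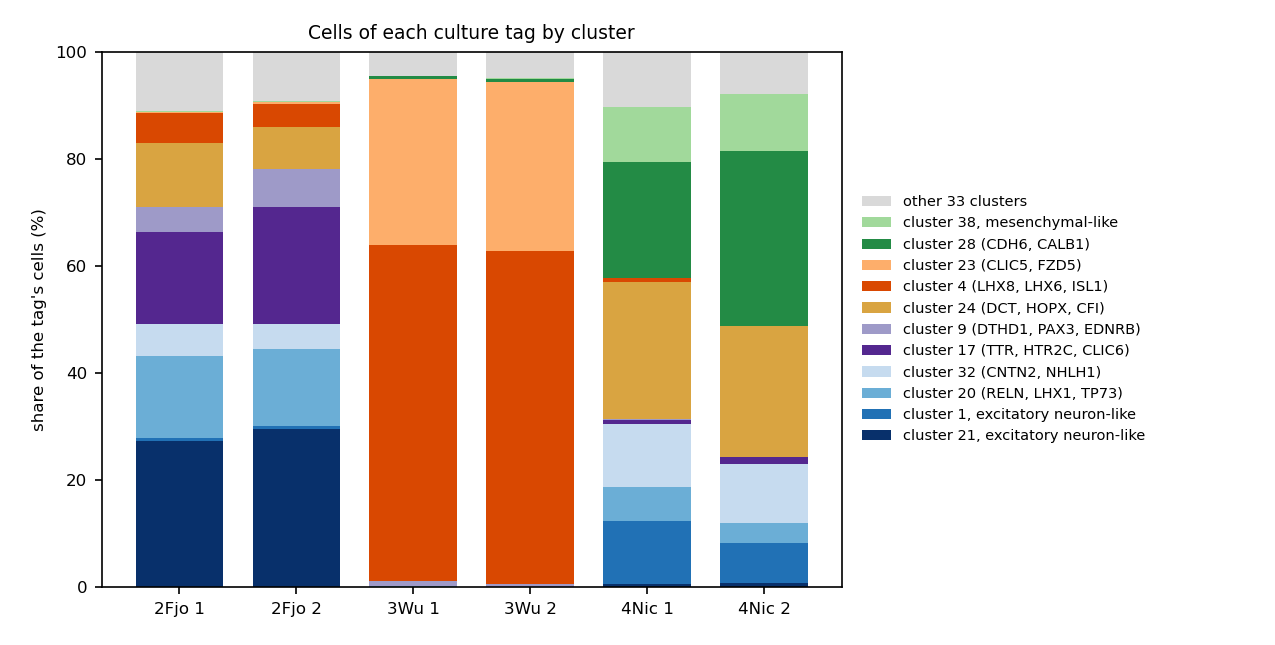
Share of the cells of each tag (%) in the 11 clusters named in the key and in all others, from clustering of the whole series. 2Fjo is led by cluster 21 at 27.3% and 29.5%, 3Wu by cluster 4 at 62.9% and 62.1%, and 4Nic by clusters 24 and 28.

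Levels were also compared within 1 class of cells. In the clustering of the 6 tags alone, only the progenitor-like and the cycling class had at least 20 cells in every tag. Progenitor-like cells numbered 123 and 210 in 2Fjo, 54 and 120 in 3Wu, and 74 and 140 in 4Nic. They came from different clusters in each protocol: clusters 5 and 25 held nearly all of those in 2Fjo, cluster 17 most of those in 3Wu and cluster 12 nearly all of those in 4Nic. The comparison is therefore between clusters as well as between protocols, and these cannot be told apart. Of 15418 genes tested within the class, 2101 passed against the mean (13.6%), 1303 higher (8.45%) and 798 lower (5.18%).

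LMX1A lay at 211 and 233 CPM in 2Fjo, 0 and 0.389 in 3Wu, and 0 and 3.15 in 4Nic. RSPO2 lay at 1270.0 and 1483 CPM in 2Fjo, 1.98 and 5.45 in 3Wu, and 9.02 and 35.1 in 4Nic (log2 fold change 6.99 ± 0.26 against the mean, edgeR adjusted p = 6.05e-11). Both genes were far lower in all 4 other tags, and RSPO2 was lower in the 4Nic cells of this class than in the sum over all 4Nic cells (178 and 256 CPM). Neither gene entered the clustering, though RSPO2 is among the 10 leading genes of cluster 5. WNT5A was at 53.6 and 63.6 CPM against 2.73 to 8.56 in the other tags, and WNT7B at 60 and 58.9 against 1.17 to 11.3. Of 18 WNT genes tested, 7 passed higher (beside 8.45% of all genes) and 1 lower, with a median log2 fold change of 0.39. The 1 lower was LEF1, the nuclear effector of the pathway, whose level of 28.4 and 31.9 CPM was under the 166 and 152 of 4Nic and above the 13.8 and 26.9 of 3Wu.

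Of 10 immediate early genes tested within this class 9 passed higher (beside 8.45% of all genes) and 0 lower, with a median log2 fold change of 2.27. EGR1 was at 133 and 146 CPM in 2Fjo, 1.98 and 1.95 in 3Wu, and 38.7 and 23.4 in 4Nic, without overlap (log2 fold change 4.19 ± 0.25, edgeR adjusted p = 1.12e-08). Of 14 cell cycle genes tested, 7 passed higher and 0 lower, against 0 and 2 of 16 in the sums over all cells. The 2 tags of 2Fjo were far apart here: TOP2A, a topoisomerase of dividing cells, lay at 38.1 and 178 CPM, with 4.95 to 12.1 in the other tags. Among genes lower in 2Fjo progenitor-like cells were the homeobox gene MEIS2 (86.2 and 107 CPM, against 312 and 314 in 3Wu and 1392 and 1171 in 4Nic) and GRIN2B (85.5 and 79.8 CPM, against 389.8 and 420.4 and 979 and 1069). GLI3, the main repressor of hedgehog targets, lay between the protocols at 559 and 543 CPM, with 225 and 249 in 3Wu and 3042 and 3261 in 4Nic. From the cortical glutamatergic list 4 of 9 passed higher and 1 lower against the mean here. Against 3Wu 6 passed higher and 1 lower (7.49% and 6.23% of all genes), with a median log2 fold change of 2.08, and against 4Nic 0 passed higher and 1 lower (10.4% and 9.24%), with a median of -0.58. In either direction 13.7% of all genes passed against 3Wu and 19.6% against 4Nic.

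**Figure D4:**
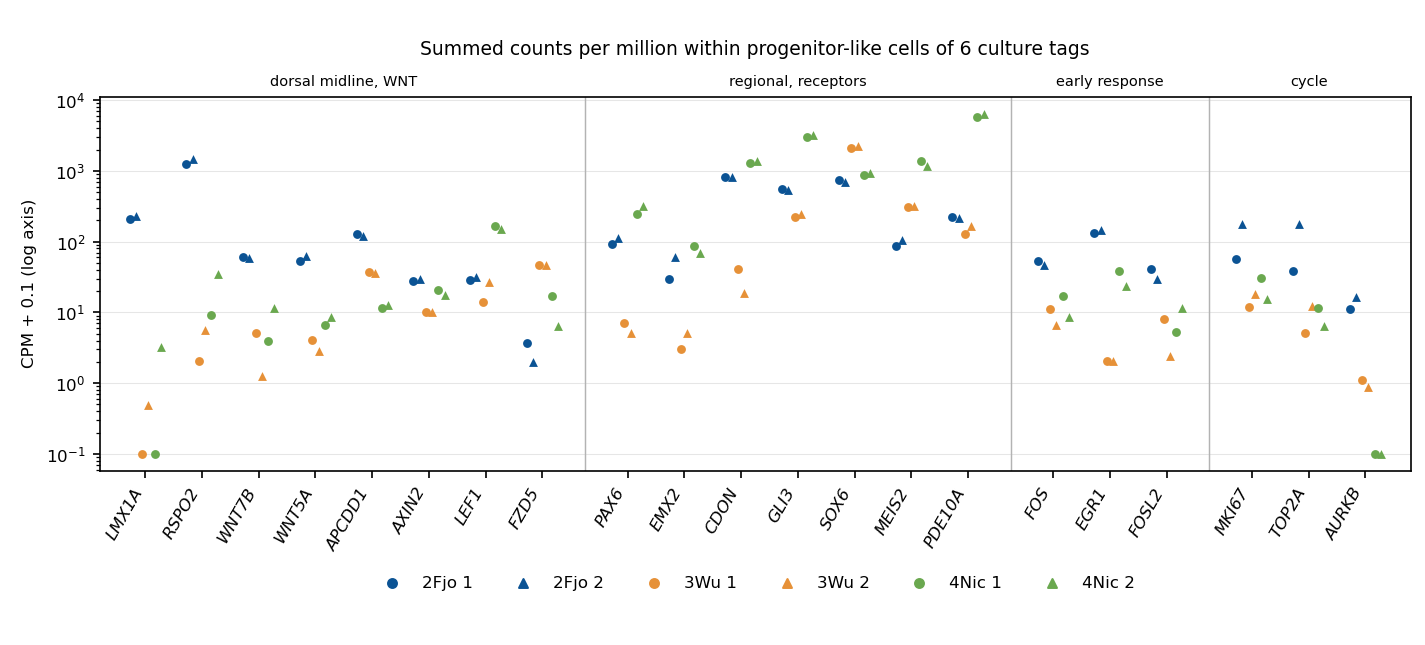
Level of genes (CPM + 0.1, log axis) within the progenitor-like cells of the 6 culture tags; circles are tag 1 and triangles tag 2, and colours are protocols. LMX1A and RSPO2 are above 200 CPM in both 2Fjo tags and at most 35.1 CPM in the other tags, and MKI67 and TOP2A are higher in tag 2 than in tag 1 of 2Fjo.

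Cycling cells numbered 79 and 74 in 2Fjo, 33 and 59 in 3Wu, and 134 and 279 in 4Nic, again from different clusters (21 and 29, 24, and 4 and 27, in that order). Of 13497 genes tested within them 1642 passed (12.2%), 657 higher (4.87%) and 985 lower (7.3%). The cortical glutamatergic list had 7 of 12 passing higher (beside 4.87% of all genes) and 1 lower, with a median log2 fold change of 2.29. Against 3Wu the list had 7 higher and 1 lower (4.85% and 8.47% of all genes) and a median of 3.31, and against 4Nic 4 higher and 1 lower (5.22% and 8.56%) and a median of 0.66. In either direction 13.3% and 13.8% of all genes passed, in that order. The 1 lower was CUX2, at 59.5 and 63.1 CPM in 2Fjo, 193 and 151 in 3Wu, and 344 and 323 in 4Nic. OTX2 was low in cycling 2Fjo cells, at 5.37 and 5.74 CPM against 84 and 68.2 in 3Wu and 21.1 and 41.4 in 4Nic (log2 fold change -3.15 ± 0.39, edgeR adjusted p = 6.05e-05), whereas it overlapped between groups in the sums over all cells. The list of the medial ganglionic eminence had 0 of 6 higher and 5 lower, and the immediate early list 2 of 8 higher and 1 lower. RSPO2 in cycling cells was lower in 2Fjo than in 4Nic, at 53.2 and 66.4 CPM in 2Fjo, 8.28 and 6.38 in 3Wu, and 150 and 308 in 4Nic (log2 fold change against 4Nic -1.96 ± 0.29, edgeR adjusted p = 0.000267).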

How the data were processed

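Single cells were profiled by split-pool barcoding with a polyA library in 8 sublibraries of 1 pool. The deposited matrices hold estimated counts per gene and cell, made by the authors with Salmon 1.7.0, alevin and Seurat 4.1.1 on hg38, per the submitters' processing notes; 54.3% of entries were whole. Cells were grouped by the tag in the cell name. Counts were summed per tag over all sublibraries, rounded, filtered with filterByExpr, scaled (TMM) and compared by the quasi-likelihood test of edgeR 4.0.16 (3 groups, 6 tags, 3 residual degrees of freedom, Benjamini-Hochberg threshold 0.05). The common biological coefficient of variation was 0.169. A fold change against the mean is 2Fjo minus the average of 3Wu and 4Nic on the log2 scale. The SE given with a fold change was derived from the test, as its absolute value divided by the square root of the F statistic. On simulated data with 100 genes each changed 2-fold and 4-fold among 25637, 58% and 96% were recovered, and 7.23% of calls were false. The changed genes were drawn only from those above a floor of expected counts, so the recovery does not cover genes with few counts. Far fewer genes were changed than passed in the data, so the share of false calls does not carry over.

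Cells were clustered with leidenalg 0.10.2 without the listed genes, and a class name needed at least 3 detected markers, 40% of the list and no majority of another class's markers among its leading genes. Doublets, called in 2.77% of all cells by simulation, stayed in, and removing them is an alternative. Only 36% of the simulated doublets passed the threshold, so that alternative may leave many doublets in. Entries of 0.5 or more were taken as a count in a cell. Thinning to 5000 counts left out 5 to 13 cells per tag. The levels within a class use the clustering of the 6 tags alone, because in that of all cells no class had 20 cells in every tag. Depth limits low genes, and floors for 0 are 3 counts; floors cover counting error only.

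The groups, genes and lists were chosen with earlier results of these data known. The genes named were the 12 with the largest fold change in each direction (adjusted p of 0.05 or less, no overlap between 2Fjo and the other tags, at least 10 CPM), up to 4 members of each list by level and fold change, and a set of identity genes. Other list members were named after their values were seen. The alternatives were DESeq2 1.42.0, RLE factors, no filter, doublets removed, all 46 tags in one fit, the tag number as a block, equal cell numbers, and leaving out each tag. Some list members are counted but not reported here by name.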

Additional observations from a re-analysis of the deposited data

How the results depend on the processing

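Of the 129 listed genes that passed against the mean, 62 kept their call and direction under every alternative that gave an adjusted p, and 0 reversed. Of the 24 genes with the largest fold change 23 did, COL1A2 being the exception. In the fit over all 46 tags 1973 genes passed against the mean, 2036 against 3Wu and 3514 against 4Nic. Leaving out each tag in turn gave 2490 to 4424, 1890 to 4897 and 3683 to 6203 genes, in that order. The low ends came without 2Fjo tag 1, 3Wu tag 2 and 4Nic tag 2, and an arm left with 1 tag is assumed to vary like the others. Within progenitor-like cells DESeq2 called 1315 genes, and leaving out each tag gave 1394 (without 2Fjo tag 2) to 2101. With the replicate block 3281, 3398 and 5000 genes passed. Same-numbered tags did not deviate together (correlations 0.131, -0.344 and -0.106), so the numbers were not read as pairs. ITGA11 against 3Wu turned from -0.81 to 0.008014 on the log2 scale with doublets removed (edgeR adjusted p = 0.982), and VIM from 0.10 to -0.62 without 2Fjo tag 2 (edgeR adjusted p = 0.043), the lowest of its values with a tag left out, which reached 0.5902 without 2Fjo tag 1. Differences in class share turned for GABAergic neurons from 0.596 percentage points to -0.0963 (resolution 1.2) and -13.8 (clusters of the 6 tags alone), and for cycling cells from 1.66 to -1.26 (resolution 0.4) and -5.81 (clusters of the 6 tags alone). For intermediate progenitors the difference was -0.241, with -0.469 to 0.0686 on leaving out each tag, positive without 4Nic tag 1, and -5.19 with clusters of the 6 tags alone. With the clusters of the 6 tags the difference for progenitor-like cells went from 0.261 to 4.39, and at resolution 0.4 that for mesenchymal cells went from -4.87 to -0.076. Cycling cells had 0.0934 at resolution 1.2. The causes were not tested. With 2 tags a protocol, exact tests of shares could not pass, and genes with few counts, such as DRD1, GLI1 and LHX8 outside 3Wu, are limited by depth.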
